A study of Mus musculus with 6 samples.

Results

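To ask how the chromatin of reprogramming cells moves on once the fibroblast state has been left, accessibility was followed over the intermediates of days 8, 9 and 10, which are 3 of the 6 libraries of the series. The comparison was confined to autosomes 1 to 19, with 218231 of the 223596 regions of the table. A region was counted as a steady rise or a steady fall when the step from day 8 to day 9 and the step from day 9 to day 10 went the same way and the difference between days 8 and 10 exceeded 2 counting standard errors. By this rule 11225 regions were steady rises and 26624 were steady falls. Regions are named by their row number and chromosome, since the table gives no coordinates and pairs no region with a gene, and the cell type labels were therefore not checked against marker genes.

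All groups came from female hybrid mouse cells of a cross between Musculus mothers with an X-linked GFP reporter and Castaneus fathers. Passage 1 mouse embryonic fibroblasts (MEFs) were transduced with tetO-FUW-OSKM, a lentivirus that carries Oct4, Sox2, Klf4 and c-Myc under a doxycycline-dependent promoter, and with FUW-M2rtTA, the transactivator. They were then sorted for cells whose GFP was silent on the inactive X, and the MEF day 0 library was taken at that point, before doxycycline. The intermediates of days 8, 9, 10 and 12 were kept in doxycycline and ascorbic acid and sorted for SSEA1, a carbohydrate antigen of the cell surface that cells gain on the way to pluripotency (the labels name FUT4, an enzyme that makes it). The iPSCs were grown from picked colonies after doxycycline and ascorbic acid had been withdrawn. Each time point was 1 library of sorted cells with no replicate, so that nothing below rests on replicates and no p-value is given. The calls and the fold intervals of single regions allow for counting error only. The intervals of medians and shares are taken over regions, which are not replicates, and leave out the scaling between libraries. The variation between cultures is unknown.

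As background, the Omni-ATAC assay uses a transposase that cuts and tags DNA where nucleosomes are absent, so that reads pile up over active promoters, enhancers and other regulatory regions. Reprogramming with Oct4, Sox2, Klf4 and c-Myc is known to close enhancers of the somatic cell, to open enhancers of pluripotent cells, and to open for a time regions that neither cell type uses. Cells that gain SSEA1 are enriched for those on the way to pluripotency, and they are still a mixture, because only a part of them reach it. In bulk libraries such as these, a change in the share of cells with an open region and a change in its accessibility per cell cannot be told apart.

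The 3 libraries were of similar depth. Autosomal regions held 28348565 reads at day 8, 32284532 at day 9 and 30076246 at day 10, with a median of 50, 61 and 52 reads per region. The counting standard error of the log2 ratio between days 8 and 10 had a median of 0.41. Fragments of 2 reads were taken as the unit of counting. The table value of a region is log2 of the normalised count plus 1, and the normalised count is the number of reads divided by the size factor of the library. Differences among days 8, 9 and 10 are log2 ratios of normalised counts with nothing added, whereas the differences of iPSC from MEF day 0 and of day 12 from day 9 are differences of table values, which understate the change of weak regions. The day 12 calls beyond counting error use the plain ratio. Reads were somewhat less concentrated at day 9, where the most accessible 10% of the regions held 50.7% of the reads, against 52.8% at day 8 and 53.6% at day 10. The part of this difference in the results was not tested.

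The 3 days can stand in 6 orders, and all 6 were common. The order with day 8 highest and day 10 lowest was the most frequent, with 52091 regions (23.9%). The opposite order, a rise at both steps, held 34609 regions (15.9%). The other 4 orders held between 28533 regions (13.1%) and 39923 regions (18.3%), the latter with day 9 lowest and day 8 highest. Most regions with a steady order had differences within counting error, which held for the rises and not for the falls. Of the 34609 regions that rose at both steps 11225 were beyond it, and of the 52091 that fell 26624 were. Beyond counting error, steady rises made up 5.14% of all autosomal regions and steady falls 12.2%, which is 2.37 falls for each rise. Since the authors' size factors set the zero of this scale, the balance depended on them. With equal autosomal totals, which raise day 10 by 0.11 against day 8 on the log2 scale, there were 16796 rises and 20476 falls. Rises were then 45.1% of the steady regions in place of 29.7%. Falls outnumbered rises under every scaling tried, with 1.12 falls for each rise under quantile normalisation and 1.16 under size factors taken from days 8, 9 and 10 alone.

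**Figure D1:**
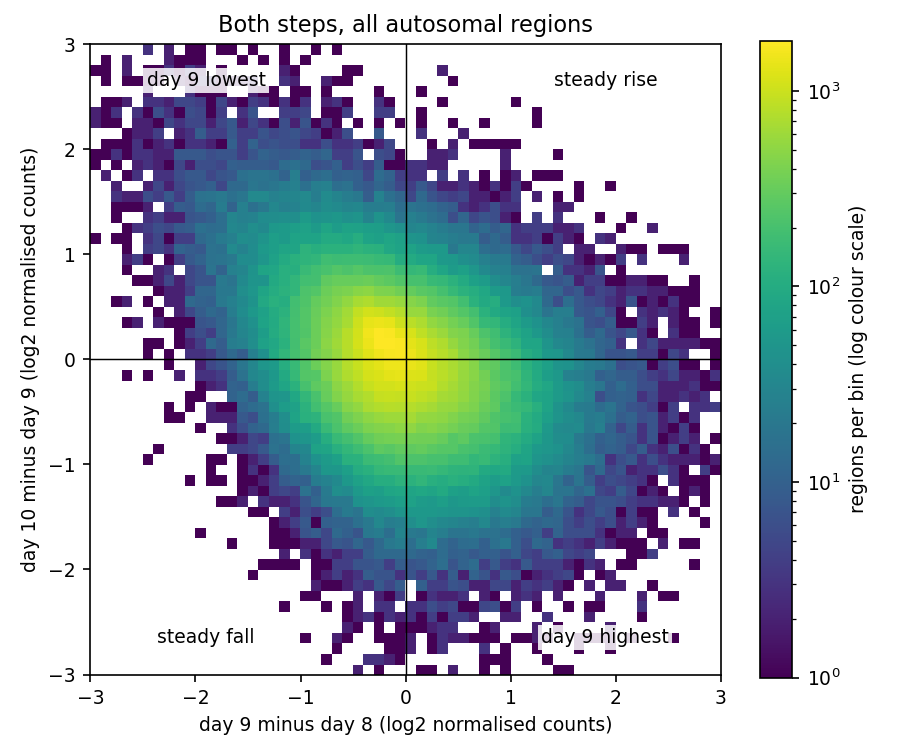
The plot sets the step from day 8 to day 9 (horizontal) against the step from day 9 to day 10 (vertical), both as log2 ratios of normalised counts, with colour for the number of autosomal regions per bin on a log scale. The cloud of 218104 regions centres near 0 and is stretched towards the corners with day 9 highest or lowest, and 127 regions lie outside the range of 3 in either direction.

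The drift was of moderate size. The steady rises had a median log2 difference of 0.98 between days 8 and 10, with quartiles of 0.68 and 1.37. The steady falls had a median of -0.98, with quartiles of -1.31 and -0.70. Both medians correspond to a change of 1.97-fold over the 2 steps. A change of at least 2-fold was reached by 48.2% of the rises and 47.9% of the falls, and at least 4-fold by 752 rises and 1117 falls. Rises of at least 2-fold that reached 50 normalised counts at day 8 or day 10 numbered 2581 (1.18% of all autosomal regions), and such falls numbered 8120 (3.72%). A median of 55.7% of the change was completed at day 9 in the rises and 52.1% in the falls. The rule places day 9 between the other days, so these medians do not show that single regions changed evenly. The sizes of the change describe regions that were chosen by them. At the threshold, the rise just inside it (row 128152, chromosome 2) had 100.5, 130.6 and 141 normalised counts at days 8, 9 and 10, and the rise just outside it (row 170750, chromosome 6) had 348, 401 and 421. The fall just inside it (row 35060, chromosome 11) had 72.4, 60.7 and 44.2 normalised counts, and the fall just outside it (row 115995, chromosome 2) had 856, 788 and 752. Regions at the threshold thus differed by less than 2-fold, and the deeper the region the smaller the change that was called.

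From day 8 to day 9, 13923 regions rose (6.38%) and 32153 fell (14.7%) beyond counting error. From day 9 to day 10 the calls were nearly even, with 19463 rises (8.92%) and 20069 falls (9.20%). The balance of a single step rests on the scaling, since equal autosomal totals would raise day 9 against day 8 by 0.15 and size factors from days 8 to 10 by 0.14 on the log2 scale, more than the median step of -0.10. From day 8 to day 10 as a whole, 16337 regions rose (7.49%) and 35397 fell (16.2%), and the day 9 value lay between the others in 68.7% of these rises and 75.2% of these falls. The spread of the differences over regions was larger than counting error gives, at 1.55 counting standard errors for the step to day 9, 1.47 for the step to day 10 and 1.67 for both together (0.5 times the distance between percentiles 16 and 84, where counting error alone gives 1). The libraries therefore differed by more than counting error, over a large number of regions and in both directions.

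Few regions moved the same way beyond counting error at each step. Both steps were rises in 432 regions (0.198%) and falls in 2685 regions (1.23%), together 3117. In 11509 regions the steps were opposite and both beyond counting error, with day 9 below both neighbours in 7488 regions (3.43%) and above both in 4021 regions (1.84%). The value of day 9 enters both steps with opposite sign, so an error of that library by itself adds to the opposite class. Regions with day 9 below its neighbours were mostly strong ones that were open at both ends of the series. Their medians were 463, 342 and 463 normalised counts at days 8, 9 and 10, and 73.5% of them were open in both MEF day 0 and iPSC, against 26.8% of all autosomal regions. Regions with day 9 above its neighbours had medians of 57.9, 109 and 59.2, and 37.6% were open in MEF day 0 only. In both sets day 8 and day 10 were at nearly the same median. These sets were chosen by their day 9 value, and an error of that library and a passing change on that day cannot be told apart.

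The libraries of MEF day 0, day 12 and iPSC did not enter the choice, whereas the order of days 8, 9 and 10 is fixed by it. Over the steady falls the median level on the log2 scale was 4.25 in MEF day 0, then 6.91, 6.40, 5.93 and 5.31 over days 8, 9, 10 and 12, and 4.63 in iPSC. The medians of MEF day 0 and iPSC were below those of all autosomal regions, except for falls of a class that is open at that end. The day 9 level was above that of both MEF day 0 and iPSC in 72.1% of the steady falls and in 31.8% of all autosomal regions. This is given as a description, since day 9 took part in the choice and the falls were deeper, with a median of 117 reads at day 9 against 61. Over the steady rises the median was 7.15 in MEF day 0, then 5.59, 6.16, 6.57 and 6.48 over the same 4 days, and 5.36 in iPSC. Their level in MEF day 0 was above that of all autosomal regions, and they too were deeper, with a median of 99 reads at day 9 against 61. All autosomal regions had medians between 5.36 and 5.53 in the 6 libraries.

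**Figure D2:**
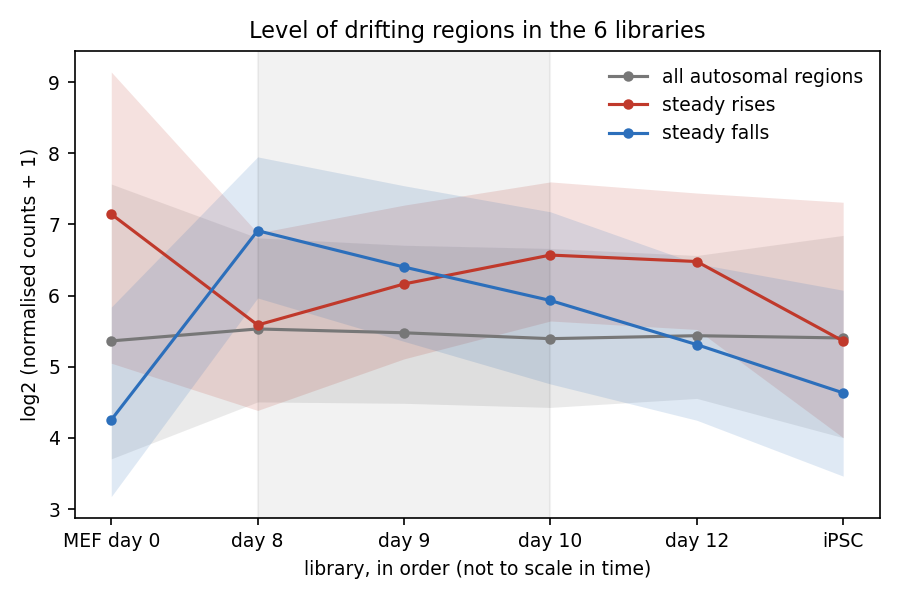
Median level, as log2 (normalised counts + 1), of the 11225 steady rises, the 26624 steady falls and all 218231 autosomal regions in each library, with shading for the quartiles over regions and a grey band over the days that chose the regions. The falls peak at day 8 with 6.91 and end at 4.63 in iPSC, whereas the rises start at 7.15 in MEF day 0 and are lowest among the intermediates at day 8, with 5.59.

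The difference between iPSC and MEF day 0 uses no library that entered the choice. Over the steady rises its median was -1.41 on the log2 scale (95% order-statistic interval over regions -1.48 to -1.33), where all autosomal regions had -0.18. Over the steady falls it was 0.22 (0.22 to 0.26). Relative to all regions the rises were thus shifted by -1.24 towards fibroblast regions, and the falls by 0.40 the other way. Regions at least 4-fold lower in iPSC than in MEF day 0 made up 43.0% of the rises and 14.2% of the falls, against a background of 21.4%. Regions at least 4-fold higher in iPSC made up 14.5% of the rises and 17.9% of the falls, against 18.5%. The steady rises thus held more regions that were lower in iPSC than the background, and fewer that were higher. Under quantile normalisation the shift of the rises was -0.45 and that of the falls 0.00.

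To describe this further, regions were sorted by their state at both ends, with 50 normalised counts as the minimum for an open region. Of the autosomal regions, 58527 were open in both MEF day 0 and iPSC, 42629 in MEF day 0 only, 39447 in iPSC only and 77628 in neither. The steady rises were most often open in MEF day 0 only, with 4083 regions or 36.4% (95% Wilson interval 35.5% to 37.3%), against 19.5% of all regions. The steady falls were most often open in neither, with 15127 regions or 56.8% (56.2% to 57.4%), against 35.6% of all regions. The rank of the classes depended on the settings. With equal autosomal totals 6040 rises were open in both and 4008 in MEF day 0 only, and rises open in both were also the more numerous under quantile normalisation (7993 and 6020) and under size factors from days 8 to 10 (6772 and 5186). With 20 normalised counts as the minimum, regions open in both were the most frequent among the rises (57.3%) and the falls (36.0%), against 49.9% of all regions. Read the other way, 9.58% of the regions open in MEF day 0 only were steady rises, compared with 5.98% of those open in both, 4.10% of those open in iPSC only and 2.61% of those open in neither. Steady falls made up 19.5% of the regions open in neither, 10.9% of those open in iPSC only, 7.50% of those open in MEF day 0 only and 6.82% of those open in both.

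**Figure D3:**
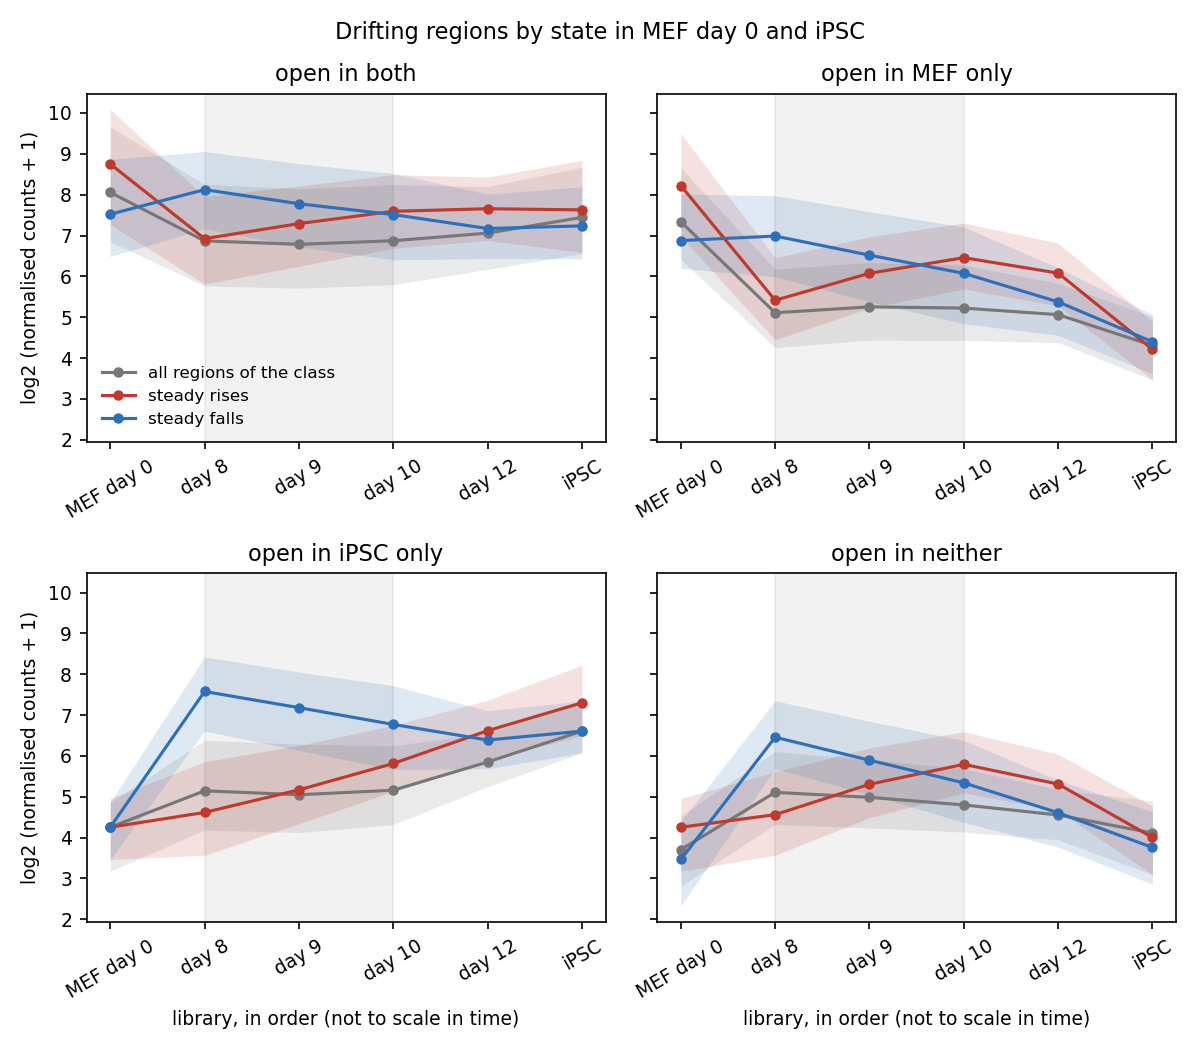
Median level, as log2 (normalised counts + 1), in each library for the 4 classes of state in MEF day 0 and iPSC, with steady rises, steady falls and all regions of the class and shading for quartiles over regions. Rises open in MEF day 0 only climb from 5.41 at day 8 to 6.46 at day 10 and drop to 4.21 in iPSC, whereas rises open in iPSC only go on to 6.62 at day 12 and 7.30 in iPSC.

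In the classes below, the order of days 8, 9 and 10 restates the choice and the class fixes the range of MEF day 0 and iPSC, so that the sizes are a description. The 4083 rises open in MEF day 0 only had a median of 297 normalised counts in MEF day 0, then 41.6, 66.4, 86.9 and 66.6 over the intermediates, and 17.5 in iPSC. The median at day 10 was still well below that of the fibroblasts, and that of day 12 was close to that of day 9. All regions open in MEF day 0 only had medians of 33.5, 37.1 and 36.3 at days 8, 9 and 10.

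The 3499 rises open at both ends had a median of 430 normalised counts in the fibroblasts, 120, 156, 192 and 201 over the intermediates and 197 in iPSC. The medians of day 10, day 12 and iPSC were close to each other and below that of the fibroblasts.

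The 1618 rises open in iPSC only had a median of 18.1 normalised counts in the fibroblasts, 23.5, 35.0, 55.3 and 97.2 over the intermediates and 157 in iPSC. The median was higher in each library than in the one before. The highest of the 6 libraries was iPSC in 79.6% of these regions, close to the 77.1% of all regions open in iPSC only. The 2025 rises open in neither had 18.1, 22.6, 38.5, 54.5, 38.7 and 15.0 in the same order. The median at day 12 was close to that of day 9.

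The 15127 falls open in neither MEF day 0 nor iPSC were the most numerous of the falls. Their median was 10.0 normalised counts in the fibroblasts, 86.9, 58.5, 39.5 and 23.4 over the intermediates and 12.5 in iPSC. Of these regions 18.6% were open at day 12, against 12.4% of all regions open in neither. No library lies between days 0 and 8, so that the course before day 8 was not measured.

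The 4306 falls open in iPSC only had a median of 18.1 normalised counts in the fibroblasts, 190, 144, 108 and 82.8 over the intermediates and 96.5 in iPSC. Their iPSC median was that of all regions open in iPSC only, and it was above that of day 12. The 3199 falls open in MEF day 0 only had 116, 126, 90.7, 66.3, 40.5 and 20.1 in the same order, with day 12 and iPSC below every earlier library. The 3992 falls open at both ends had 183, 278, 218, 182, 143 and 150, and the median of iPSC was close to that of day 12.

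Day 12 was compared with day 9, since the size of the change between days 8 and 10 chose the regions. The rule also fixed the sign of the step from day 9 to day 10, which lies within this span. The comparison therefore does not by itself measure a change after day 10. Day 12 was below each of days 8, 9 and 10 in 79.3% of the falls, against 39.6% of all autosomal regions. The falls had a median level of 5.93 at day 10 and 5.31 at day 12. Their median log2 difference from day 9 to day 12 was -1.17 (-1.18 to -1.16), against -0.05 in all autosomal regions. Day 12 was below day 9 beyond counting error in 18425 falls (69.2%), where the background was 25.3%, and above it in 646 (2.43%), where the background was 22.4%. The difference from day 9 to day 12 was negative in each class. Its medians were -1.43 for falls open in neither, -1.19 for MEF day 0 only, -0.77 for iPSC only and -0.54 for both. All regions of these classes had -0.71, -0.33, 0.72 and 0.29 in the same order. Regions open in neither or in MEF day 0 only thus declined as classes too, though by less than their falls. For iPSC only and for both, the falls were opposite to the class as a whole.

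The rises did not continue in common. Their median level was 6.57 at day 10 and 6.48 at day 12. The median log2 difference from day 9 to day 12 was 0.16 (0.14 to 0.17), against -0.05 in all autosomal regions. Day 12 was above day 9 beyond counting error in 28.6% (22.4% of all) and below it in 12.8% (25.3% of all). The rule placed day 10 above day 9 in every rise, so part of this difference restates the choice. The classes differed widely. Among rises open in iPSC only the median was 1.34 and 69.6% were above day 9 at day 12, compared with 0.72 and 46.3% in the class as a whole. Among rises open in MEF day 0 only the median was -0.09 and 7.64% were above day 9, compared with -0.33 and 5.60% in the class. Among rises open in both the median was 0.34, compared with 0.29 in the class. Among those open in neither it was -0.10, compared with -0.71 in the class. Day 12 was above days 8 to 10 in 76.1% of the rises open in iPSC only and in 62.8% of the class. It was within the range of those days in 66.9% of the rises open in MEF day 0 only and in 35.7% of the class, and that range is wider in regions chosen for a rise.

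In the stricter set both steps were beyond counting error. Among the 432 regions with 2 rises, 43.1% were open in MEF day 0 only (19.5% of all) and 7.64% in iPSC only (18.1%). The median difference between iPSC and MEF day 0 in these 432 regions was -2.64 (all autosomal regions -0.18). Their medians were 372 normalised counts in the fibroblasts, 122, 185, 266 and 191 over the intermediates and 41.4 in iPSC. Day 12 was above day 9 in 21.1% (22.4% of all) and below it in 19.2% (25.3%), which was no common direction. Among the 2685 regions with 2 falls, 54.4% were open in neither (35.6% of all) and 20.5% in iPSC only (18.1%). Their medians were 20.1 in the fibroblasts, 330.3, 231, 158 and 75.6 over the intermediates and 30.1 in iPSC. Day 12 was below day 9 in 2603 of them (96.9%), against 25.3% of all autosomal regions. The rule for these 2685 regions placed day 9 above the next library beyond counting error, and the background was not chosen in this way. The share of 96.9% therefore restates the choice in part. Day 12 was the lowest of the intermediates in 95.4% of these regions, against 39.6% of all autosomal regions.

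How often a region was called depended on its level, since counting error is larger in weak regions. Steady falls were 3.04% of the regions with a mean under 20 normalised counts over days 8 to 10, 15.5% of those with 50 to 100 and 24.5% of those with 200 to 500. Steady rises were 2.63%, 6.47% and 8.38% in the same bands. Within a band the classes were still apart. Among regions with 200 to 500 normalised counts, steady falls made up 57.4% of those open in neither, 45.6% of those open in iPSC only, 24.4% of those open in MEF day 0 only and 11.6% of those open in both. In the band of 100 to 200, steady rises made up 18.5% of the regions open in MEF day 0 only, 7.78% of those open in both, 4.65% of those open in iPSC only and 3.20% of those open in neither. Regions open in MEF day 0 only had fewer falls than rises as a class and more falls than rises in the upper bands, with 634 falls and 401 rises at 200 to 500 and 144 falls and 49 rises at 500 or more. The median log2 difference between days 8 and 10 in the band of 200 to 500 was -0.57 in regions open in neither and 0.01 in those open in both.

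**Figure D4:**
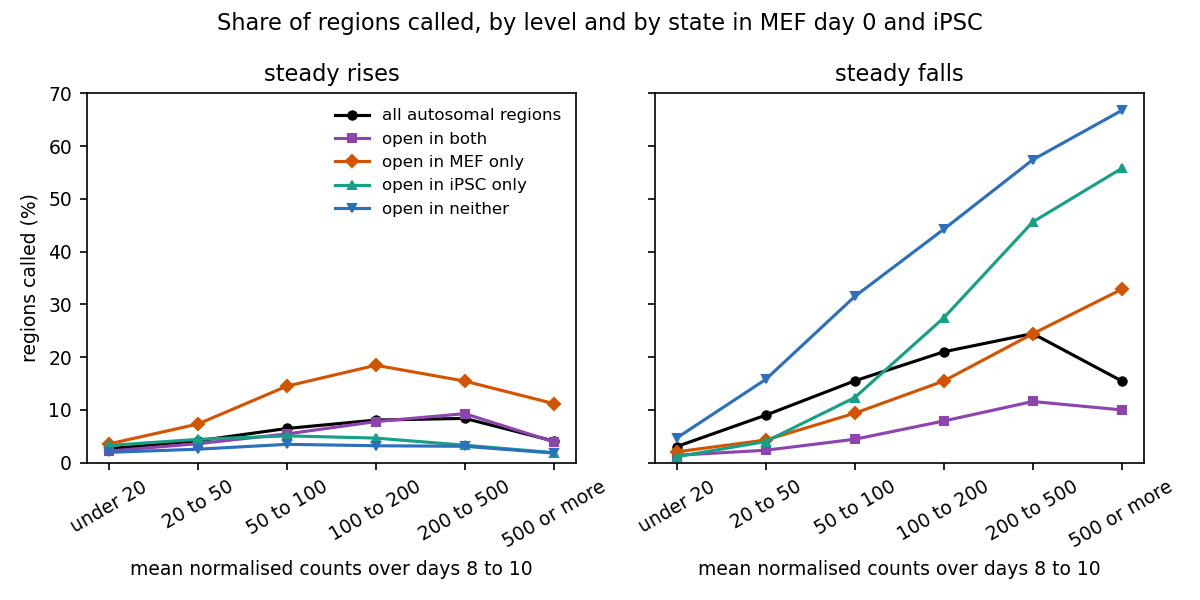
Percentage of regions called as steady rises (left) and steady falls (right) by mean normalised counts over days 8 to 10, for all autosomal regions and for the 4 classes of state in MEF day 0 and iPSC. Falls reach 66.8% of the regions open in neither with at least 500 normalised counts, and rises are most frequent in regions open in MEF day 0 only, with 18.5% in the band of 100 to 200.

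The order of the classes depended in part on the scaling between libraries. Regions open in neither had the most falls for each rise, with 7.47 under the authors' size factors and 3.64 to 4.22 under the other scalings (equal autosomal totals, quantile normalisation and size factors from days 8 to 10), and regions open in iPSC only came next, with 2.66 and 1.207 to 1.35. Regions open in MEF day 0 only had 0.783 falls for each rise and 0.337 to 0.447 under the other scalings. In regions open in both the direction of the balance turned, from 1.14 falls for each rise to 0.327 to 0.380. The excess of rises among fibroblast-only regions over those open in iPSC only or in neither was present under each of the 4 scalings, whereas their excess over regions open in both shrank from 9.58% against 5.98% to 14.7% against 14.0% under quantile normalisation.

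Single regions show these courses. The rises with the largest differences were weak at day 8. The region in row 92637 on chromosome 17 had 28, 6, 21, 66, 45 and 11 reads in MEF day 0, at days 8, 9, 10 and 12 and in iPSC, a rise of 9.60-fold in normalised counts from day 8 to day 10 (95% exact interval with fragments as the unit 3.01 to 48.9). The region in row 147788 on chromosome 4 had 11, 8, 54, 68, 34 and 14 reads, a rise of 7.42-fold (2.65 to 28.8). The region in row 103485 on chromosome 18 had 77, 10, 36, 75, 53 and 3 reads, a rise of 6.55-fold (2.61 to 21.6). In all 3 the highest intermediate was day 10, and day 12 and iPSC were lower again. A low day 8 and a high day 10 chose these regions, and the intervals do not allow for that choice.

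The most secure rises in each class, by the number of counting standard errors, were much deeper. Row 28342 on chromosome 11, open at both ends, had 3096 normalised counts in MEF day 0, then 185, 348, 497 and 367 over the intermediates, and 221 in iPSC, a rise of 2.69-fold from day 8 to day 10 (2.14 to 3.39). Row 193265 on chromosome 7, open in MEF day 0 only, had 1241, 123, 254, 361, 258 and 18.8, a rise of 2.93-fold (2.22 to 3.90). Both were at their highest in the fibroblasts and reached a second, lower maximum at day 10, a day that entered the choice. Row 197145 on chromosome 8, open in iPSC only, had 30.1, 90.5, 144, 263, 198 and 103, a rise of 2.91-fold (2.10 to 4.06). Row 79613 on chromosome 15, open in neither, had 4.02, 86.0, 101, 269, 147 and 25.1, a rise of 3.12-fold (2.23 to 4.35), most of it in the step to day 10. These last regions were highest at day 10 and lower in iPSC, unlike the median of the iPSC-only rises, which was highest in iPSC.

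The falls with the largest differences ended at a few reads. The region in row 5918 on chromosome 1 had 9, 58, 46, 4, 18 and 4 reads in the order of the series, a fall of 16.6-fold from day 8 to day 10 (4.20 to 144). The region in row 144717 on chromosome 4 had 1, 65, 65, 7, 14 and 10 reads, a fall of 10.6-fold (3.25 to 35.7), where 1 read is the smallest number in the table and can stand for 0. The region in row 69041 on chromosome 14 had 3, 61, 22, 7, 9 and 11 reads, a fall of 9.99-fold (3.03 to 33.6). In all 3 day 12 was above day 10 in reads, which was the low value that chose them.

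The most secure falls had at least 199 reads in every intermediate library. Row 119976 on chromosome 2, open in neither, had 30.1 normalised counts in MEF day 0, then 1130.3, 655, 488 and 185 over the intermediates, and 15.0 in iPSC, a fall of 2.32-fold from day 8 to day 10 (2.02 to 2.66). Row 57926 on chromosome 13, open in iPSC only, had 44.2, 1718, 1303, 929, 324 and 70.2, a fall of 1.85-fold (1.67 to 2.05). In both, day 8 was far above either end, and every later library was lower than the one before. Row 74517 on chromosome 15, open in MEF day 0 only, had 528, 1043, 620.4, 497, 179 and 22.6, a fall of 2.10-fold (1.83 to 2.42). Row 136003 on chromosome 3, open at both ends, had 1283, 1100.5, 746, 547, 268 and 276, a fall of 2.01-fold (1.76 to 2.30). Its level was highest in MEF day 0 and similar at day 12 and in iPSC.

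**Figure D5:**
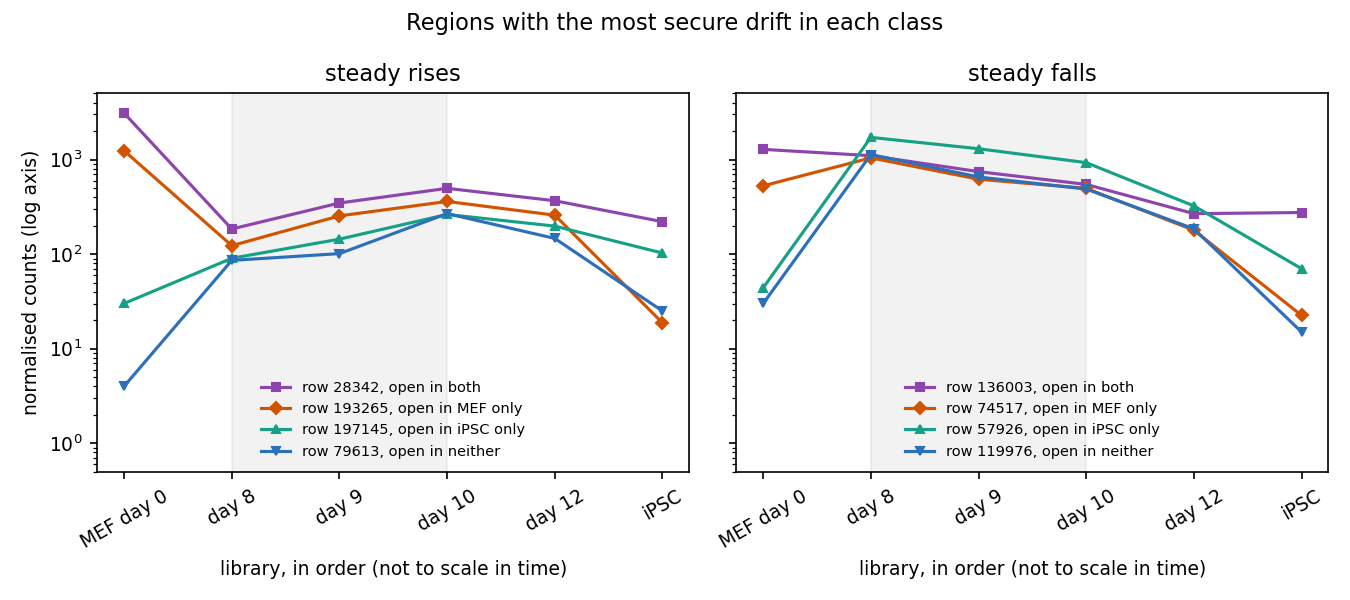
Normalised counts, on a log axis, in the 6 libraries for the steady rise (left) and the steady fall (right) with the most counting standard errors in each of the 4 classes, named by row number. The 4 falls decline from 1043 to 1718 at day 8 to 179 to 324 at day 12, and the 4 rises peak among the intermediates at day 10 with 263 to 497.

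The drift was spread over all autosomes. Steady rises were 4.62% of the regions on chromosome 5, the lowest share, and 6.01% on chromosome 19, the highest. Steady falls ranged from 10.6% on chromosome 11 to 13.4% on chromosome 1. The median difference between iPSC and MEF day 0 over the rises lay between -1.78 and -1.17 on the 19 autosomes. That over the falls lay between 0.12 and 0.30, and that over all regions between -0.32 and -0.03. The autosomes share the same libraries and scaling and are not replicates. In the order of the table, a region that followed a steady rise on the same chromosome was a rise in 9.41% of cases and a fall in 8.99%, against 5.14% and 12.2% for a region that followed any region. A region that followed a steady fall was a fall in 17.6% and a rise in 3.74%. Whether the order of the table is the order along the chromosome was not checked, since positions were not used here.

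Correlations were taken over all 218231 autosomal regions, which share libraries and depth and are not replicates. The change from day 8 to day 10 correlated with that from day 9 to day 12 (Pearson r 0.370, Spearman rho 0.3695). These spans share the step from day 9 to day 10, which enters both. The steps that share no library, day 8 to day 9 and day 10 to day 12, hardly correlated (r 0.084, rho 0.094). The change from day 8 to day 10 hardly correlated with that from MEF day 0 to iPSC (r -0.0957, rho -0.103). The likeness to MEF day 0 went up over the intermediates, with an r of 0.429 at day 8, 0.483 at day 9 and 0.527 at day 10. The likeness to iPSC was 0.448, 0.438 and 0.5196 and that to day 12 was 0.740, 0.769 and 0.841. Day 10 was thus closer than day 8 to all 3 outer libraries, whereas day 9 was no closer than day 8 to iPSC.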

How the data were processed

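Chromatin accessibility was measured in 6 libraries with the Omni-ATAC protocol and paired-end sequencing. The authors aligned reads to GRCm38/mm10 with the ENCODE ATAC-seq pipeline, counted them over a common set of regions with DiffBind (version 3.8 per the labels) and divided by size factors with DESeq2 (1.21.22). The deposited values are log2 of these counts plus 1 and are not split by allele.

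Normalised counts were 2 to the power of the value minus 1. All were whole multiples of 1 step per library (100.0% within 0.001), which gave reads and size factors. The smallest number was 1 read and can stand for 0. Low read numbers were even 1.07 to 1.17 times as often as odd at days 8 to 10, and fragments of 2 reads served as the unit of counting error. Size factors of this kind assume that the typical region does not change. Intervals of single regions cover counting error only. Medians carry order-statistic intervals and shares carry Wilson intervals, both over regions, which are not replicates. The regions, classes and rules were chosen with earlier results of these data known. Alternatives were other scalings, thresholds, filters, pseudocounts and equal depth. Named regions were, per direction, the 3 largest differences with at least 50 normalised counts at day 8 or day 10, the most secure region of each class and the regions next to the threshold. Python 3.11.15, numpy 2.4.6, pandas 2.3.3, scipy 1.17.1 and matplotlib 3.10.9 were used.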

Additional observations from a re-analysis of the deposited data

How the results depend on the processing

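No paired analysis was possible because each time point has 1 library. Counting error limits the calls in weak regions, and a region with few reads needed a change of several fold. The number of steady rises was 20612 with quantile normalisation, 17253 with size factors from days 8 to 10, 19465 with single reads as the unit, 3868 beyond 3 counting standard errors, 432 with each step beyond 2 and 2581 with at least 2-fold and 50 normalised counts. The number of steady falls was 13942 beyond 3, 2685 with each step beyond 2 and 8120 with at least 2-fold and 50 normalised counts. The other alternatives, including day 9 left out, which was chosen after seeing the data (16337 rises and 35397 falls), left both counts within 1.5 times.

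The median difference between iPSC and MEF day 0 over the rises was negative under every alternative. It was -0.11 with equal autosomal totals (all regions 0.78), -0.35 with quantile normalisation (0.11), -1.11 with size factors from days 8 to 10, -1.002 with single reads, -2.08 beyond 3 counting standard errors, -2.64 with each step beyond 2, -2.22 with 2-fold, -1.55 when means under 20 were left out, -1.50 with reads thinned to the shallowest library and -1.17 with a pseudocount of 10. Over the falls it was 1.12 with equal totals, 0.11 with quantile normalisation, 0.29 beyond 3, 0.44 with each step beyond 2, 0.13 with a pseudocount of 10 and 0.16 with day 9 left out.

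The median difference from day 9 to day 12 over the rises turned to -0.013 with each step beyond 2, and the cause was not tested. It was 0.31 with equal totals, 0.32 with quantile normalisation, 0.23 with single reads, 0.027 beyond 3, 0.19 with 2-fold, 0.10 without means under 20, 0.13 with thinned reads, 0.14 with a pseudocount of 10 and 0.13 with day 9 left out. Over the falls it was -1.13 with equal totals, -1.30 with quantile normalisation, -1.29 with size factors from days 8 to 10, -1.03 with single reads, -1.36 beyond 3, -1.58 with each step beyond 2, -1.43 with 2-fold, -1.19 without means under 20, -1.22 with thinned reads, -0.98 with a pseudocount of 10 and -1.10 with day 9 left out.

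The share of rises open in MEF day 0 only was 25.7% with regions open from 20 normalised counts (15.7% of all regions), 23.9% with equal totals (13.4%) and 43.0% with classes by a 4-fold difference (21.4%). The share of falls open in neither was 30.4% from 20 normalised counts (14.9% of all), 72.2% from 100 (53.7%) and 62.5% with equal totals (39.6%).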

Other observations

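X-linked regions were outside the comparison and are given as values. Of the 5357 X-linked regions, 341 were steady rises (6.37%) and 490 were steady falls (9.15%), and every autosome had a lower share of rises and a higher share of falls. The median log2 difference between iPSC and MEF day 0 was 1.06 over the X-linked rises, 1.00 over the X-linked falls and 1.07 over all X-linked regions, so that on the X chromosome the rises were not set apart from the falls as they were on autosomes. From day 9 to day 12 it was 0.79 over the X-linked rises, -1.30 over the X-linked falls and 0.49 over all X-linked regions. The median depth at day 9 was 41 reads on the X chromosome and 61 on autosomes. These differences were not tested.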
